A study of Mus musculus with 8 samples.

Results

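Transcription factors of epidermal and other surface epithelia were followed in the mouse mammary cancer line MAM326. The 10 genes were Zfp750, Grhl1, Grhl2, Grhl3, Trp63, Klf4, Klf5, Ovol1, Ehf and Elf3, and they were selected with their GFP-positive against GFP-negative values already known. Every non-control probe that carries one of these gene names was taken, which gave 15 probes. Of these, 13 gave a signal well above background on 4 or more arrays, and each of the 10 genes kept at least 1 such probe, out of 19691 features measured in all. A single probe on the array was all that 7 of the genes had.

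MAM326 cells were grown in medium with 10% serum and sorted by fluorescence for GFP, 2 days after seeding, into positive and negative cells. Each fraction was profiled on 4 one-colour Agilent arrays from 20 ng of total RNA, and the labels describe 4 independent experiments at different passages without saying which array belongs to which. Both fractions come from the same line and carry no other labelled genotype or treatment, and the labels do not name the promoter behind GFP. The 8 arrays sat on 1 slide in 2 rows. GFP-positive replicates 1 and 3 and GFP-negative replicates 2 and 4 were in row 1, and GFP-positive replicates 2 and 4 and GFP-negative replicates 1 and 3 were in row 2. A difference between the rows in the GFP contrast is therefore the same quantity as a difference between odd-numbered and even-numbered replicates in both fractions. In that difference, slide row cannot be told apart from replicate number or from experiment. A shift of level with slide row that is alike in both fractions is a separate quantity. Within a row, odd-numbered replicates of 1 fraction are set against even-numbered replicates of the other, 2 arrays each.

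Levels are log2 signals set relative to the 75th percentile of each array, with 0 at that percentile, and no probe's level is set against another's. Between 45.1% and 57.4% of probes were well above background per array and none was saturated. Krt8, a simple-epithelial keratin, was at 7.16 to 7.86 in GFP-positive cells and at 6.78 to 7.57 in GFP-negative cells. The fibroblast marker Col1a2 was also above background on all arrays. It was at 1.19 to 5.23 in GFP-positive cells and at 3.14 to 6.61 in GFP-negative cells. Of 10 luminal mammary markers 7 were measured, and Muc1 and Pgr were above background on no array. In these bulk samples fewer cells of a type and less RNA per cell cannot be told apart.

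The factors belong to a network known from the skin. p63, encoded by Trp63, maintains the basal layer of stratified epithelia, and ZNF750, the human counterpart of Zfp750, acts below it in the switch to terminal differentiation together with KLF4. The 3 grainyhead-like factors Grhl1, Grhl2 and Grhl3 regulate junction, barrier and adhesion genes, and Grhl2 is known for maintaining the epithelial state in mammary cells. Klf5 is a factor of proliferating epithelial cells, Ovol1 a zinc-finger repressor of mesenchymal genes, and Ehf and Elf3 are ETS factors restricted to epithelia.

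The probes of the 2 genes with the widest separation between fractions, Zfp750 and Grhl3, and the 4 probes of Trp63 are shown first, because every value below is a value of such a probe and because the Trp63 probes differed in their readout. Each probe has 60 bases, of which the first 30 are given 5′ to 3′ as listed in the deposited files.
Zfp750, A_51_P402160: caccagggaaatacacagaactagctcagc
Grhl3, A_55_P2023391: ggaacaaatacccttgccacctactgttgt
Trp63, A_55_P2161055: acacgatcgaaacgtacaggcagcagcagc
Trp63, A_51_P216550: caaaaggtactttcttatagacatgatact
Trp63, A_52_P338796: cagtcccatataccatgcacttaactcttt
Trp63, A_55_P1952056: acttaccatgtgtcctggctatagcttttc
On the mm9 build the Zfp750 probe lies at chr11:121372670-121372729 on the minus strand and the Grhl3 probe at chr4:135097991-135098050 on the minus strand. The Trp63 probes lie on the plus strand of chromosome 16 and, in the order printed, start at 25871159, 25892012, 25867718 and 25821344. The A_55_P2161055 and A_51_P216550 probes are annotated to 3 and 4 RefSeq transcripts of Trp63 and share 0 of them. The remaining 2 probes are annotated to no RefSeq transcript. The exon or untranslated region that each probe lies in was not analysed here.

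Upstream sequence, the 250 bases before the annotated start, was at hand in a RefSeq table (GRCm38.p6) for 4 of the 10 genes. It is shown for Grhl3, whose fractions did not overlap, for Elf3, whose levels moved with Grhl2, and for Klf4, whose fractions had nearly the same mean. Capitals mark CACCC on either strand (GGGTG when read on the other), the box that Krüppel-like factors such as Klf4 and Klf5 bind.
Grhl3, chr4:135573633-135573882, minus strand: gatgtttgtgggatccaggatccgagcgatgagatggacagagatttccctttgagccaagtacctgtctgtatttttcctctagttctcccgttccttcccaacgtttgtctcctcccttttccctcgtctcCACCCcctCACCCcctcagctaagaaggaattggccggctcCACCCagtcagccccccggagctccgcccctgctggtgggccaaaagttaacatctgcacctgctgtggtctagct
Elf3, chr1:135258473-135258722, minus strand: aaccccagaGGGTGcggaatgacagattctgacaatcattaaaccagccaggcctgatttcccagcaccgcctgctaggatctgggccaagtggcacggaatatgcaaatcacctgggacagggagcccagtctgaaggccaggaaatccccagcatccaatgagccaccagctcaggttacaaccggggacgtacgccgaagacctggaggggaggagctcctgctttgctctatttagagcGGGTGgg
Klf4, chr4:55532476-55532725, minus strand: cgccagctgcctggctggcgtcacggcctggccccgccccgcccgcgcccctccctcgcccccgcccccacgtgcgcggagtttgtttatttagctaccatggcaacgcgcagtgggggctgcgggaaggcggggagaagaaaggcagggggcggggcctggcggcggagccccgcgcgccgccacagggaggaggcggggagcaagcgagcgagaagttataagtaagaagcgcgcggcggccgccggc
In the Grhl3 window the letters CACCC begin 117, 109 and 76 bases before the start. The Elf3 window holds the box on the other strand from 241 and from 7 bases before the start. The same letters occur on either strand in 52% of the 32851 promoter windows of this length in the table. The grainyhead motif AACCGGTT, found in 0.116% of windows, the ETS core CCGGAA, found in 12% of windows, and the OVOL motif CCGTTA, found in 2.18% of windows, were searched on both strands and were in none of the 3 windows. A match describes letters only and no binding was measured.

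Zfp750, the zinc-finger differentiation factor, showed the widest difference of the 10 genes. Its log2 level was -0.63, -1.23, -0.42 and -1.31 in the 4 GFP-positive arrays, against -2.92, -4.66, -3.87 and -3.80 in the 4 GFP-negative arrays. Every GFP-positive array was above every GFP-negative array, with 1.61 between the nearest of them. The means were -0.90 ± 0.44 in GFP-positive cells and -3.81 ± 0.71 in GFP-negative cells (SD, n = 4 each), a log2 difference of 2.91 ± 0.37 (standard error), or 7.53-fold. The difference was 3.70 within slide row 1 and 2.13 within row 2, and it was 1.78 with another background correction (normexp). In GFP-negative cells the Zfp750 probe was low, although above background on all 4 arrays. The lowest level of any probe above background on those arrays was between -5.57 and -4.66. The size of the difference thus depended on the background correction.

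Grhl3, the grainyhead-like factor required for the skin barrier, was the only other gene of the 10 whose fractions did not overlap. It had levels of -0.73, -0.95, -0.42 and -1.02 in GFP-positive cells and -1.93, -2.38, -1.71 and -2.22 in GFP-negative cells. The difference of 1.28 ± 0.18 (2.43-fold) was larger than the spread within either fraction, with SDs of 0.27 and 0.30. It was 1.73 in row 1 and 0.83 in row 2. Over the 10 genes, 2 (Zfp750 and Grhl3) were among the features higher in GFP-positive cells at an adjusted p under 0.05 in limma's fit, beside 1.81% of the 19691 features, and 0 were among those lower, beside 0.741%. All 4 GFP-positive arrays lay above all 4 GFP-negative arrays for the same 2 genes, beside 5.06% of features. The sign was positive for 9 of the 10 genes, with a median difference of 0.45, beside a median of -0.06 and 39.3% of differences above 0 over all features. Since the genes were selected on this contrast, nothing is read from these counts, the signs or the median.

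**Figure D1:**
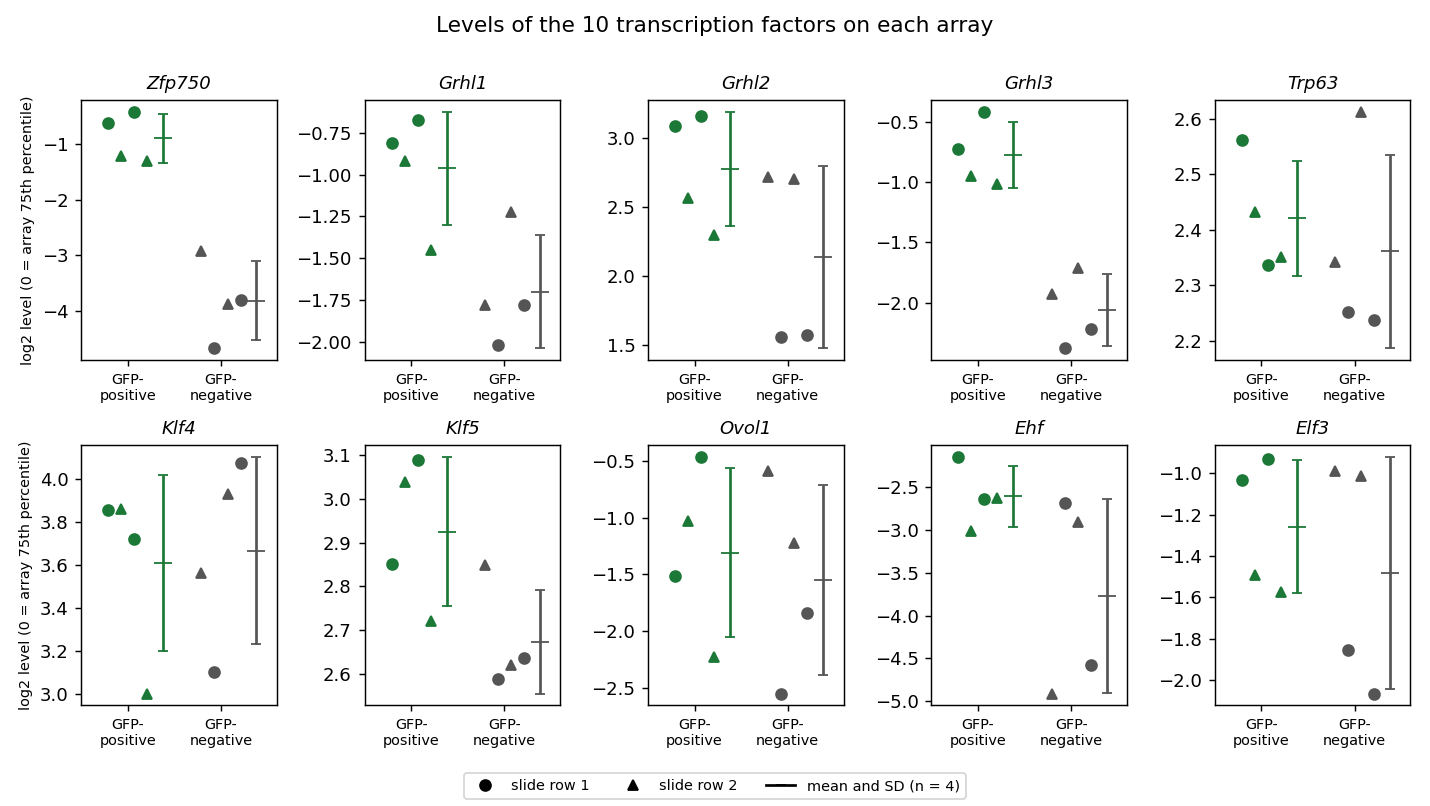
Log2 level of each of the 10 genes on every array, GFP-positive left of GFP-negative, with circles for slide row 1, triangles for slide row 2, and a bar for the mean and SD of 4 arrays. Each panel has its own scale. Only for Zfp750 and Grhl3 do all GFP-positive points lie above all GFP-negative points, and for Grhl2 and Elf3 both GFP-negative triangles lie above both GFP-positive triangles.

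Grhl1, the grainyhead-like factor linked to desmosomes, was at -0.81, -0.92, -0.67 and -1.45 in GFP-positive cells and at -1.78, -2.02, -1.22 and -1.78 in GFP-negative cells. The fractions overlapped through GFP-positive replicate 4 and GFP-negative replicate 3. Its difference was 0.74 ± 0.22 (1.67-fold), 1.16 in row 1 and 0.32 in row 2, so the sign was the same in both rows.

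Grhl2, the factor of the epithelial state, overlapped between fractions. Its levels were 3.08, 2.56, 3.16 and 2.29 in GFP-positive cells and 2.71, 1.55, 2.70 and 1.57 in GFP-negative cells. GFP-negative replicates 1 and 3 were above GFP-positive replicates 2 and 4, while within each fraction replicates 1 and 3 were above replicates 2 and 4. The overall difference was 0.64 ± 0.34, composed of 1.56 in row 1 and -0.28 in row 2. Split by replicate number instead, the odd replicates had means of 3.12 in GFP-positive cells and 2.71 in GFP-negative cells, and the even ones of 2.43 in GFP-positive cells and 1.56 in GFP-negative cells, so GFP-positive cells were higher in both. The difference between the rows was 1.83 ± 0.16, with an adjusted p of 0.0342 over all features in limma's fit. The second Grhl2 probe had an overall difference of 0.63 and a difference of -0.25 in row 2.

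Elf3, the ETS factor, also separated odd from even replicates. Its levels were -1.03, -1.49, -0.93 and -1.57 in GFP-positive cells and -0.99, -1.86, -1.02 and -2.07 in GFP-negative cells. Odd-numbered replicates again lay above even-numbered ones within each fraction, by 0.55 on average in GFP-positive cells and by 0.96 in GFP-negative cells. The overall difference was 0.22 ± 0.29, with 0.98 in row 1 and -0.53 in row 2, and the rows differed by 1.51 ± 0.16 (adjusted p of 0.035 over all features, limma).

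Grhl2 and Elf3 were thus the 2 genes of the 10 past the threshold for a difference between rows, beside 1.22% of features, and 5 of the 10 were below 0.05 without adjustment, beside 19.2% of features. Both calls were lost when any single array was left out, GFP-positive or GFP-negative, while the row difference of Grhl2 stayed between 1.70 and 1.97 and that of Elf3 between 1.40 and 1.61. Both were also lost with no filter on dim probes, at an adjusted p of 0.123 for each gene. Of the other 8 genes, 5 had the same sign in both rows (Zfp750, Grhl1, Grhl3, Klf5 and Ehf).

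**Figure D2:**
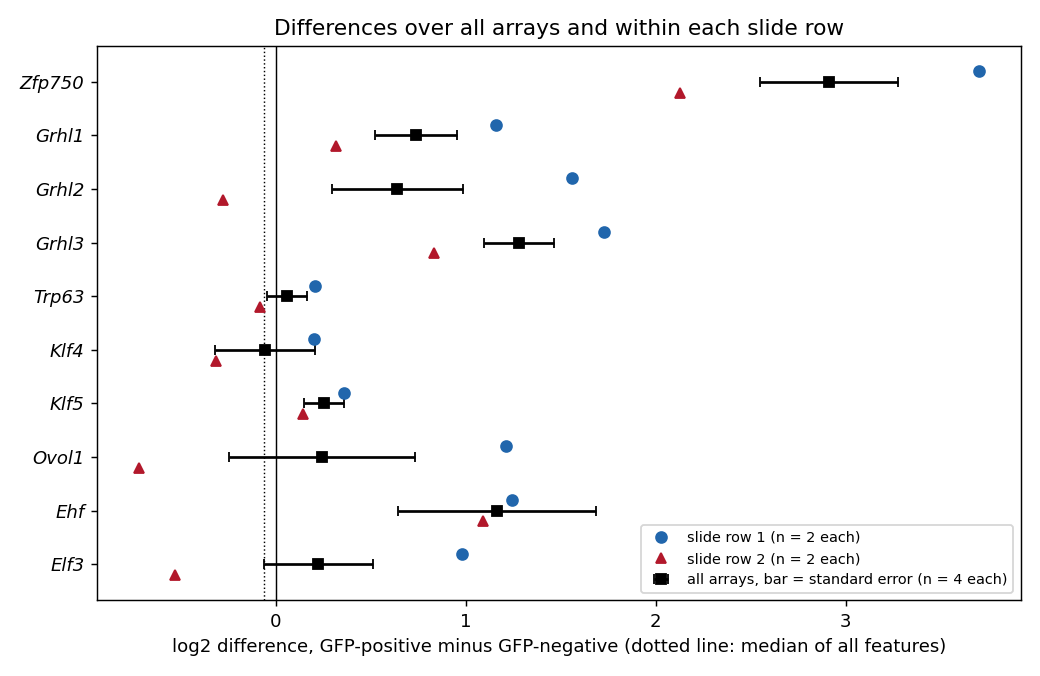
Log2 difference, GFP-positive minus GFP-negative, for each gene over all 8 arrays (squares, bar for the standard error) and within slide row 1 (circles) and row 2 (triangles, 2 arrays per fraction in each row). Every row 1 value is above 0, while Grhl2, Trp63, Klf4, Ovol1 and Elf3 are below 0 in row 2, and Zfp750 reads 3.70 in row 1 and 2.13 in row 2.

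Trp63 was measured differently by its 4 probes. The A_55_P2161055 probe, above background on all 8 arrays, was at 2.56, 2.43, 2.34 and 2.35 in GFP-positive cells and at 2.34, 2.25, 2.61 and 2.24 in GFP-negative cells. The fractions overlapped, and the difference was 0.06 ± 0.10, the smallest standard error among the 10 genes. The A_51_P216550 probe was near background, above it on 3 arrays of each fraction, and its means were -4.73 ± 0.58 in GFP-positive cells and -4.17 ± 0.68 in GFP-negative cells (SD, n = 4 each). Its difference of -0.56 had the opposite sign and a standard error of 0.41.

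The A_55_P1952056 probe of Trp63 was above background on 0 arrays, and the A_52_P338796 probe on 1, GFP-negative replicate 1. That array read -1.97, and the other 7 arrays read between -7.93 and -6.65. Of the p53 family, to which Trp63 belongs, Trp53 had a difference of -0.01 ± 0.09 and Trp73 of -0.06 ± 0.18.

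**Figure D3:**
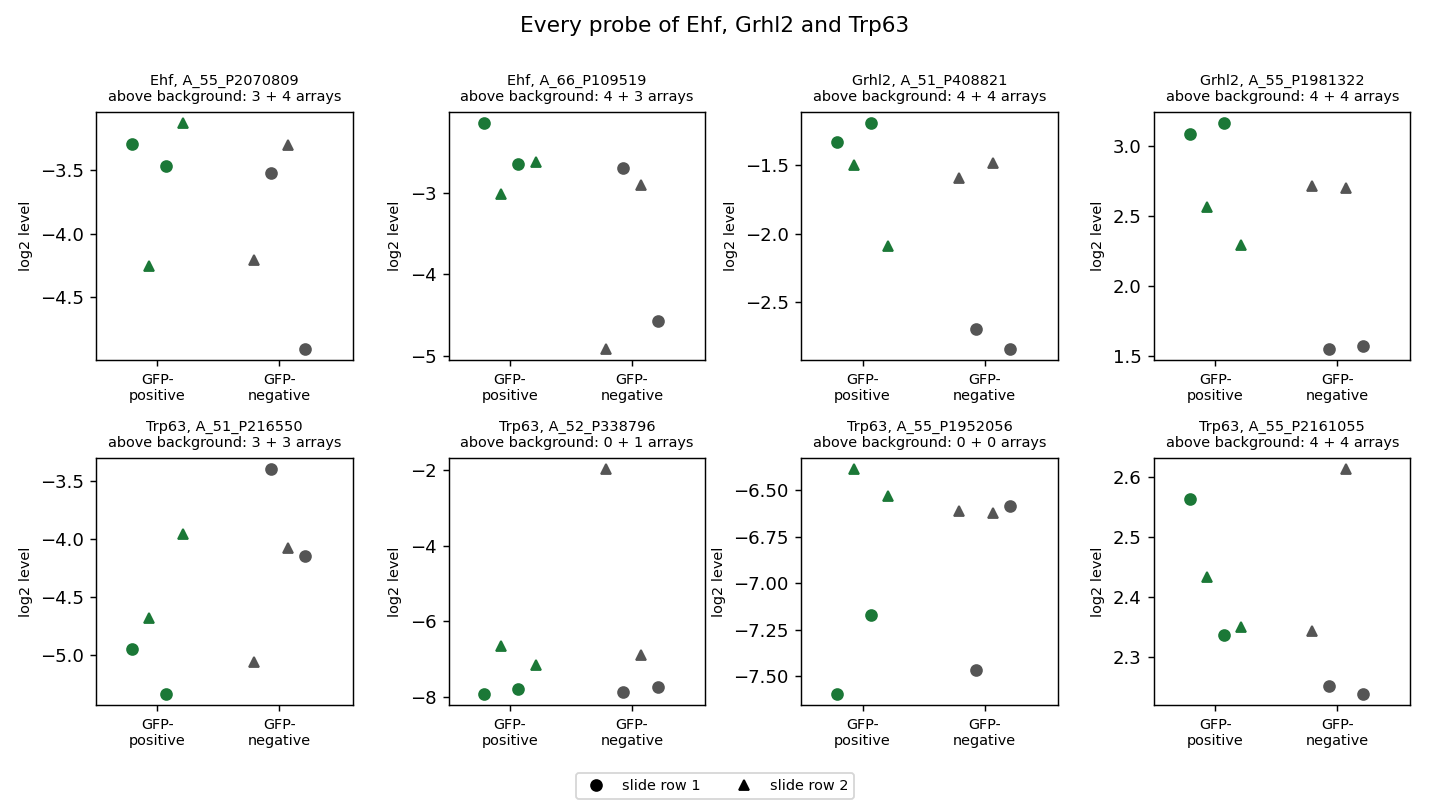
Log2 level of every probe of Ehf, Grhl2 and Trp63 on every array, with circles for slide row 1 and triangles for slide row 2, and the number of GFP-positive plus GFP-negative arrays above background over each panel. On both Grhl2 probes GFP-positive replicate 3 is highest and GFP-negative replicates 2 and 4 are lowest, and 1 Trp63 probe is high on GFP-negative replicate 1 alone, at -1.97.

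The Krüppel-like factors had small differences. Klf4 was at 3.86, 3.86, 3.72 and 3.00 in GFP-positive cells and at 3.56, 3.10, 3.93 and 4.07 in GFP-negative cells. Its difference of -0.06 ± 0.26 was within the spread of either fraction, and GFP-positive replicate 4 was the lowest array. Klf5 was at 2.85, 3.04, 3.09 and 2.72 in GFP-positive cells and at 2.85, 2.59, 2.62 and 2.64 in GFP-negative cells. Its difference was small, 0.25 ± 0.11 (1.19-fold), positive in both rows, and the fractions overlapped.

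Ehf and Ovol1 had the largest SDs within a fraction, 1.14 and 0.84, both in GFP-negative cells. Ovol1 was at -1.51, -1.03, -0.47 and -2.23 in GFP-positive cells and at -0.59, -2.55, -1.22 and -1.84 in GFP-negative cells. Its highest GFP-negative array exceeded 3 of the 4 GFP-positive arrays, and the difference was 0.24 ± 0.49, with 1.21 in row 1 and -0.72 in row 2. Leaving out GFP-positive replicate 3 gave -0.04, and leaving out GFP-negative replicate 2 gave -0.09. Among odd replicates the means of Ovol1 were -0.99 in GFP-positive cells and -0.91 in GFP-negative cells, and among even ones -1.63 and -2.20. Ehf was at -2.14, -3.01, -2.64 and -2.63 in GFP-positive cells and at -4.91, -2.69, -2.90 and -4.58 in GFP-negative cells, where 3 of 4 arrays were above background. GFP-negative replicates 2 and 3 lay among the GFP-positive arrays and replicates 1 and 4 far below them, giving a difference of 1.17 ± 0.52, which was 0.39 with normexp background correction. The second Ehf probe gave a smaller difference of 0.45.

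Within fractions, after the mean of each fraction was taken from its arrays, several of the 10 genes ordered the arrays alike. Grhl2 and Elf3 had a correlation of 0.985 over the 8 arrays, Grhl2 and Grhl3 0.908, and Grhl1 and Grhl3 0.852. Ehf was apart, at -0.043 with Grhl2 and -0.585 with Zfp750. These correlations describe 8 arrays of 1 slide whose odd and even replicates differed, and no test was made of them.

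For each of the 10 genes, the features most like it were taken as those with the highest correlation over the 8 arrays. Only features with a symbol in the RefSeq table and a value on every array were compared. Such a symbol was carried by 14154 of the 19691 features. For Zfp750 these were Cdkn1a, the gene of the p21 cell cycle inhibitor, at 0.999, and Samd12 at 0.995. With the fraction means removed these were 0.988 and 0.981. Cdkn1a was at 4.98, 4.70, 5.12 and 4.53 in GFP-positive cells and at 3.33, 1.96, 2.52 and 2.65 in GFP-negative cells, a difference of 2.21 ± 0.28, and its lowest and highest GFP-negative arrays were those of Zfp750. For Grhl3 the features were Exoc4 at 0.994 and Fgf18, a fibroblast growth factor, at 0.992, with differences of 1.05 ± 0.14 and 1.92 ± 0.24.

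For Grhl2 the most similar of the compared features was Marveld2, which encodes the tight junction protein tricellulin, at 0.996, followed by the kallikrein gene Klk6 at 0.992. Marveld2 was at 0.79, 0.33, 0.89 and -0.01 in GFP-positive cells and at 0.45, -0.52, 0.50 and -0.60 in GFP-negative cells, in the same odd and even pattern as Grhl2. For Elf3 they were Sft2d2 at 0.987 and Tbc1d10a at 0.985. The highest correlations of the remaining genes were 0.987 for Grhl1 with Spns2, 0.974 for Trp63 with Tdpoz7, 0.992 for Klf4 with Sh3rf1, 0.988 for Klf5 with 9430078K24Rik, 0.99 for Ovol1 with Rasef and 0.969 for Ehf with Depp1. The highest of so many correlations over 8 arrays is high for any feature, so these values rank the compared features and carry no test.

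**Figure D4:**
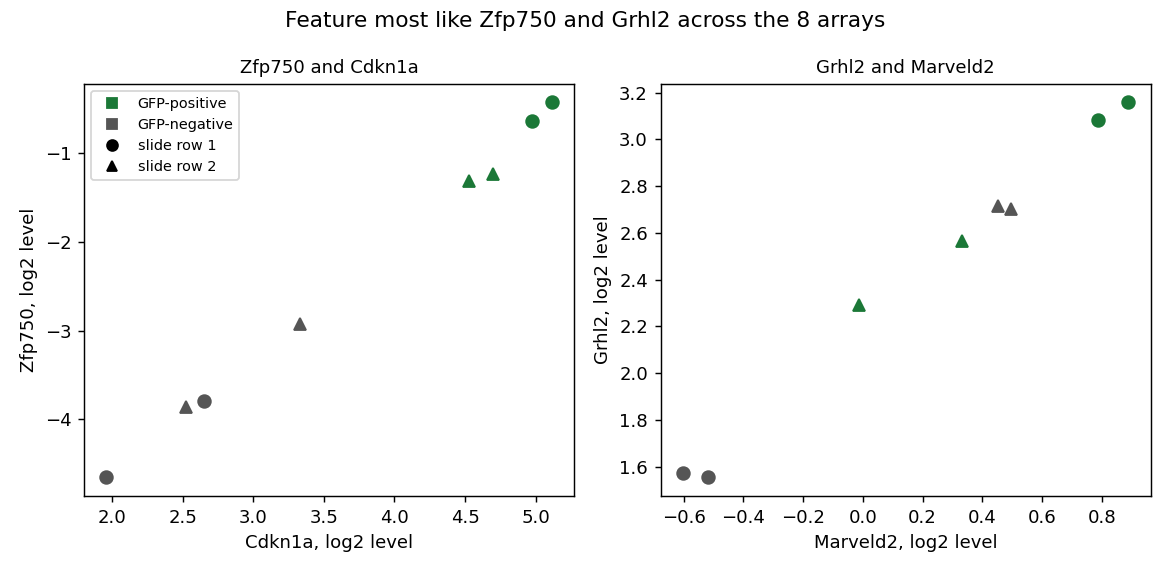
Log2 level of Zfp750 against Cdkn1a (left) and of Grhl2 against Marveld2 (right) on the 8 arrays, GFP-positive in green and GFP-negative in grey, with circles for slide row 1 and triangles for row 2. In the left panel the fractions separate, with Cdkn1a at 4.53 or more in GFP-positive cells and at 3.33 or less in GFP-negative cells, and in the right panel GFP-negative replicates 1 and 3 lie above GFP-positive replicates 2 and 4.

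Genes that grainyhead-like factors are known to act on, or that form epithelial junctions, leaned one way over the 8 arrays. All 31 measured had a positive difference, with a median of 0.65, although 0 passed the adjusted threshold in either direction. Without adjustment, 12 were higher and 0 lower, beside 7.83% of all features higher and 15.1% lower. Cldn4, a claudin of tight junctions, had a difference of 1.16 ± 0.36, St14, which encodes the membrane protease matriptase, 1.04 ± 0.35, Prom2, a prominin, 0.96 ± 0.23, and Crb3, a polarity protein, 0.89 ± 0.27.

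The junction genes carried the pattern of Grhl2 between rows. Their median difference was 1.36 in row 1 and -0.17 in row 2. Split by replicate number instead, their mean level was 2.224 and 2.287 on odd GFP-positive arrays against 1.811 and 1.816 on odd GFP-negative ones. On even arrays it was 1.881 and 1.575 against 0.925 and 0.935, so GFP-positive cells were higher in both. For the difference between rows, 12 of the 31 passed the threshold, beside 1.22% of features, a count that became 0 when any 1 array was left out. Cdh1, the gene of E-cadherin, was one of the 12, with 1.01 in row 1 and -0.30 in row 2 (adjusted p of 0.0412, limma). The median within-fraction correlation of the 31 genes was 0.951 with Grhl2 and 0.944 with Elf3, beside -0.005 and -0.022 over all features. It was 0.857 with Grhl3, 0.719 with Zfp750 and -0.04 with Ehf. High medians were not particular to the junction genes. For the 7 measured luminal markers they were 0.898 with Grhl2 and 0.842 with Elf3, and for the p63-linked genes 0.715 and 0.651.

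**Figure D5:**
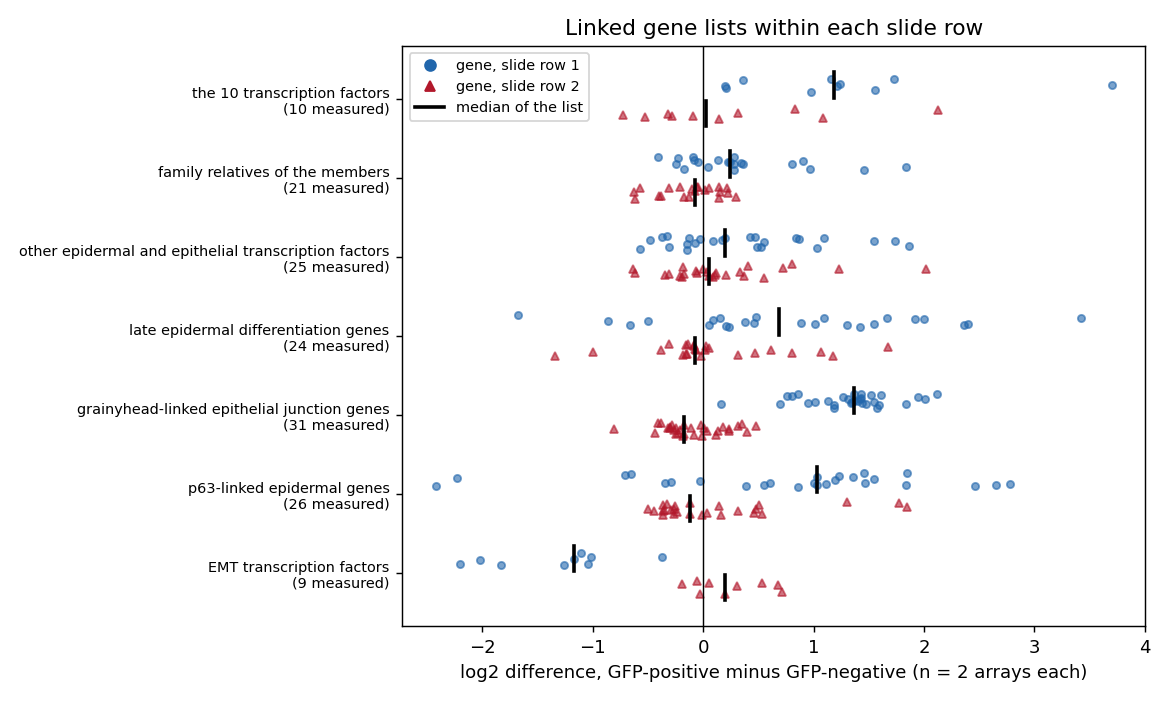
Log2 difference, GFP-positive minus GFP-negative, of each measured gene in the 10 factors and 6 linked lists, within slide row 1 (circles) and within row 2 (triangles), with a black bar for the median of each list. The junction genes have medians of 1.36 in row 1 and -0.17 in row 2, and the EMT factors of -1.17 and 0.20.

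Targets and partners of p63 were mixed. Of 27 genes 26 were measured, 20 with a positive and 6 with a negative difference (median 0.55), and 0 passed the adjusted threshold, with 8 higher and 3 lower without adjustment, beside 7.83% and 15.1% of all features. Their median was 1.03 in row 1 and -0.12 in row 2. By replicate number, their mean level was 0.887 and 1.262 on odd GFP-positive arrays against 0.832 and 0.523 on odd GFP-negative ones. On even arrays it was 0.946 and 0.665 against 0.22 and 0.411, so GFP-positive cells were higher in both. Itgb4, the hemidesmosome integrin, had a difference of 1.46 ± 0.38, Krt15, a basal keratin, 1.44 ± 0.40, Adh7, an alcohol dehydrogenase, -1.33 ± 0.35, and Fras1, a basement membrane protein, -1.39 ± 0.49. Krt15 and Fras1 were near background. Krt15 was above it on 3 GFP-positive and 1 GFP-negative arrays, and Fras1 on 1 GFP-positive and 4 GFP-negative arrays. Krt5 and Krt14, the basal keratin pair, had 1.18 ± 0.32 and 0.67 ± 0.24. Trp63 itself, by its brightest probe, had 0.06.

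Late epidermal differentiation genes, the output of Zfp750, Klf4 and Grhl3 in skin, were in part below detection. Of 48 genes, 47 of them on the array, 24 were measured and 20 were above background on no array, among them Krt1, Krtdap and several Sprr2 genes. Of the 24, 18 had a positive and 6 a negative difference. Their median difference was 0.47, with 0.68 in row 1 and -0.07 in row 2. It was 0.205 without GFP-positive replicate 3 and 0.05 with no filter on dim probes. By replicate number, their mean level was -0.059 and 0.548 on odd GFP-positive arrays against 0.143 and -0.286 on odd GFP-negative ones. On even arrays it was 0.244 and -0.212 against -0.674 and -0.453. Cst6, which encodes the protease inhibitor cystatin M/E, rose by 1.05 ± 0.12 in GFP-positive cells (adjusted p of 0.00452, limma), with levels of 1.99, 1.79, 2.12 and 1.69 there, against 1.05, 0.78, 0.83 and 0.72 in GFP-negative cells. It was the only one of the 24 past the threshold, beside 1.81% of all features higher. Evpl, which encodes envoplakin of the cornified envelope, had a difference of 1.24 ± 0.29 and Aloxe3, a barrier lipid enzyme, 1.17 ± 0.55. Serpinb2, a serpin, had 1.67 ± 1.07.

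Relatives of the 10 factors, and other epithelial regulators, gave no adjusted call. Of 21 measured relatives, 11 had a positive and 10 a negative difference, with a median of 0.08. Without adjustment, 3 were higher and 1 lower, beside 7.83% and 15.1% of all features. Klf8 had 1.07 ± 0.33, Tfcp2l1 0.54 ± 0.43, Klf11 0.51 ± 0.25, Klf2 -0.49 ± 0.27 and Ovol2, the relative of Ovol1, 0.14 ± 0.07. Elf5, the ETS factor of mammary alveolar cells, was above background on 1 array. Of 25 other epidermal and epithelial factors, 18 were positive and 7 negative (median 0.14), with 5 higher and 0 lower without adjustment, beside the same 7.83% and 15.1%. Rora, a nuclear receptor, had 1.43 ± 0.34, Foxn1, a keratinocyte factor, 0.93 ± 0.48, and Hopx 0.68 ± 0.27. Rora was near background, above it on 3 GFP-positive and 2 GFP-negative arrays.

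Transcription factors of epithelial-mesenchymal transition (EMT), which Grhl2 and the Ovol factors are known to oppose, ran the other way. Of 9 measured, 8 had a negative difference (median -0.55), with 0 past the adjusted threshold and 0 higher and 4 lower without adjustment, beside 7.83% and 15.1% of all features. Zeb2 had -0.93 ± 0.40, Zeb1 -0.85 ± 0.46, Twist2 -0.76 ± 0.53 and Prrx1 -0.68 ± 0.21. Their median was -1.17 in row 1 and 0.20 in row 2, and their median within-fraction correlation with Grhl2 was -0.887. By replicate number, their mean level was 0.788 and 0.508 on odd GFP-positive arrays against 1.077 and 1.332 on odd GFP-negative ones. On even arrays it was 1.376 and 1.526 against 1.938 and 2.03, so GFP-positive cells were lower in both.

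Fibroblast markers ran opposite to several of the factors within fractions, with median correlations of -0.808 with Zfp750, -0.784 with Ovol1, -0.761 with Grhl2, -0.743 with Elf3 and -0.726 with Grhl3. These markers, 8 of 9 measured, had a mean level between -1.83 and 0.84 on the GFP-positive arrays and between -0.34 and 1.77 on the GFP-negative arrays. Their median difference was -1.48, negative for 7 of the 8, with -2.94 in row 1 and 0.54 in row 2, and -0.94 without GFP-positive replicate 3. By replicate number, their mean level was -0.641 and -1.827 on odd GFP-positive arrays against -0.344 and 0.741 on odd GFP-negative ones. On even arrays it was 0.185 and 0.844 against 1.765 and 1.194, so GFP-positive cells were lower in both. Col1a1, a collagen of fibroblasts, had a difference of -4.65 in row 1 and 0.40 in row 2, and Dcn, the gene of decorin, of -1.86 and -1.63. The median of the luminal markers was 0.87 in row 1 and -0.21 in row 2. Their mean level was 2.938 and 2.986 on odd GFP-positive arrays against 2.974 and 2.898 on odd GFP-negative ones. On even arrays it was 2.967 and 2.529 against 2.276 and 2.454. The part of these genes in the values of Zfp750, Grhl3, Grhl2, Elf3, Ovol1 and the linked lists was not tested. Leukocyte markers, 4 of 9 measured, had a mean level of 0.20 to 0.67 in GFP-positive cells and of 0.11 to 0.58 in GFP-negative cells, and the general leukocyte marker Ptprc was above background on 1 array. Their median within-fraction correlation was -0.075 with Grhl2 and -0.167 with Elf3. Endothelial markers, 2 of 6 measured, were at -0.99 to -0.66 in GFP-positive cells and at -1.01 to -0.61 in GFP-negative cells.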

How the data were processed

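The 10 genes, the linked lists and the settings were chosen with earlier results of these data known. The deposited intensity values are the scanner output of 8 arrays made by Agilent Feature Extraction, version 10.7.3.1 with the protocol GE1_107_Sep09 per the file headers, already corrected for background by that program. What the authors did after extraction is not given in the labels or headers. Processed signals were taken to log2, set relative to each array's 75th percentile without controls and outlier spots, and averaged per probe. Probes well above background on at least 4 arrays were kept (27590 probes) and each gene took its brightest one, giving 19691 features. Symbols come from a RefSeq table of GRCm38.p6, matched for 27598 of 55681 probes by accession, for 3493 by current and for 393 by older symbol. GFP-positive minus GFP-negative and the difference between slide rows were fitted with limma 3.58.1 (lmFit, eBayes, two-sided, no replicate block) in R 4.3.3 with data.table (version 1.17.8) over all features, adjusted by Benjamini and Hochberg's method with 0.05 as the threshold, after the procedure had been tested on simulated data. Named from each linked list were up to 4 genes past the threshold, filled to 4 with the largest differences, and 9 genes regardless of result, of which 1 is not reported here. Precision is limited by the number of arrays. Nothing says that samples of a number share an experiment, so the arrays were not paired in these fits. P-values measure the spread between these arrays, of which a part may be technical. Alternatives covered scaling, background correction, dim probes, outlier spots, probes per gene, blocks, weights, prior and each array left out.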

Additional observations from a re-analysis of the deposited data

Results flagged for a closer look

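Among the members' probes, 30 groups of 4 arrays were examined for an array far from the other 3, and in 3 of them its gap to the nearest array took up more of the group's whole range than Dixon's critical value, as chance does in about 1 group in 20. GFP-negative replicate 1 took 0.835 of the range on the A_52_P338796 probe of Trp63, the one array on which that probe was above background. GFP-negative replicate 2 took 0.952 on the A_55_P1952056 probe of Trp63, which was above background on no array. GFP-positive replicate 4 took 0.837 on the Klf4 probe, where it read 3.00 beside 3.72 to 3.86 on the other GFP-positive arrays. The GFP contrast differed between slide rows by 1.83 for Grhl2 and by 1.51 for Elf3, past the threshold of the test of that difference.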

How the results depend on the processing

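The 10 genes were selected on the GFP contrast, so how often they pass its threshold describes the settings only. Over 20 alternatives, 8 of which leave out 1 array, the difference of Zfp750 ranged from 1.78 to 3.70 and passed the threshold in 19, and that of Grhl3 from 0.83 to 1.73 and in 16. Neither passed within slide row 2 (adjusted p of 0.358 and 0.332). A row holds 2 arrays per fraction, odd-numbered in 1 fraction and even-numbered in the other. Fits within a row therefore cannot separate GFP from odd and even replicate number. Grhl3 also failed with no filter on dim probes (0.0523), without either GFP-positive replicate 1 (0.061) or GFP-negative replicate 4 (0.0542). Klf4 was positive in 5 alternatives, Trp63 in 18 and Ovol1 in 17. Features higher, 357 as reported, were 149 with no filter, 624 within row 1, 0 within row 2 and 796 with array weights, and 146 to 302 with 1 array left out. Features lower, 146 as reported, were 82 with quantile scaling, 361 with normexp, 2 with no filter, 323 with all 8 arrays above background, 38 with slide row as a block, 422 within row 1, 0 within row 2, 1022 with weights and 629 with an intensity trend, and 4 to 120 with 1 array left out. Within row 2, where limma called 0, 2148 features were below 0.05 unadjusted. Of the 10 factors, 2 as reported, 1 was higher with no filter, 5 within row 1 and 0 within row 2, and 1 to 2 with 1 array left out. Linked genes higher, 1 as reported, were 6 with normexp and 6 with all 8 arrays above background, 2 with probe means, 38 within row 1, 0 within row 2, 15 with weights and 9 with the trend, and 1 to 3 with 1 array left out. Linked genes lower, 0 as reported, were 1 with normexp, 2 within row 1 and 2 with weights. Features differing between rows, 240 as reported, were 764 with normexp, 0 with no filter (3798 unadjusted), 570 with all 8 arrays above background and 713 with the trend, and 0 to 52 with 1 array left out. Replicate numbers did not pair the samples, with same-number correlations of -0.027 to 0.184 and higher ones, 0.336 to 0.653, in 4 pairs of different numbers, and with them as a block 188 features were higher and 26 lower, 4 linked genes higher and 1 lower. The cause of these shifts was not tested. Ehf had no value with all 8 arrays required. Probes near background, such as those of Ehf, Krt15, Fras1 and Rora, are the least certain. The size of the Zfp750 difference also rests on low levels in GFP-negative cells.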
